A study of Mus musculus with 24 samples.

Results

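The transcriptome of the gastrocnemius, the large calf muscle, was compared between oldest-old and young mice that had both received a control virus. The comparison used 8 of the 24 RNA-seq libraries of the series, picked by their labels: 4 labelled oldest-old GFP, from animals of 27 to 29 months, and 4 labelled young GFP, from animals of 3 to 6 months. All 8 came from uninjured female C57BL/6J mice, an inbred strain, that had received AAV-GFP in the tail vein 14 days before the muscle was taken. AAV-GFP is an adeno-associated virus of serotype 8 carrying green fluorescent protein behind a promoter active in liver, and both groups received it. Whether the young and the oldest-old mice were injected and collected together is not given in the sources used here, so that age may not be the only difference between them. The study's methods state that animals were selected for a mid-range hang test, and that mice came from several suppliers. The age and the supplier of each single mouse were not used here. Of the other 16 libraries, 2 groups serve below as references of the same ages: 4 labelled young sham, whose treatment the labels give only as Sham, and 4 labelled oldest-old AAV-Kl, in which the virus carried Klotho.

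Skeletal muscle is made of long multinucleate fibers, each wired to a motor neuron at the neuromuscular junction and classed as slow or fast by the myosin and troponin isoforms it makes. When a fiber loses its nerve it switches genes of the junction and of the embryonic muscle program back on, among them the fetal subunit of the acetylcholine receptor. Around the fibers lie fibroblasts that make collagen, capillaries, satellite cells and resident immune cells. Aged rodent muscle is known for fiber loss and atrophy, for partial denervation and for a thickened matrix.

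Levels are given as counts per 1000000 reads on genes (CPM), scaled between libraries by the trimmed mean of M values (TMM), and 4 values in a row are the libraries 1 to 4 of the group. Differences are log2 fold changes of oldest-old over young. The value after ± is a standard error worked back from the test: the size of the fold change over the square root of its F statistic. Adjusted p-values are those of edgeR's quasi-likelihood test after Benjamini-Hochberg correction over 17465 tested genes. A gene is said to have risen or fallen where that value was under 0.05. Of 10 markers of muscle fibers 1 rose and none fell, and their summed level was 62442 to 83706 CPM in oldest-old GFP and 82137 to 93871 CPM in young GFP. Some libraries stood apart in transcripts of other tissues. Keratin and other skin markers summed to 146, 12.7, 427 and 54.3 CPM in young GFP, high in libraries 1 and 3, against 26.3 to 34.8 CPM in oldest-old GFP. Red blood cell transcripts summed to 607, 117, 90.9 and 659 CPM in oldest-old GFP, high in libraries 1 and 4, against 64.2 to 103 CPM in young GFP.

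At this threshold 2236 genes, 12.8% of those tested, differed between the ages, with 1319 higher (7.55%) and 917 lower (5.25%) in oldest-old muscle. Scaled with DESeq2 size factors in place of TMM, the split was 1126 higher and 1119 lower. The increases were the larger changes: 408 of the genes that rose more than doubled, and 148 of the genes that fell fell more than 2-fold. The median log2 fold change was 0.66 among genes that rose, -0.39 among genes that fell and 0.03 over all tested genes. In 1923 of the 2236 the 4 oldest-old libraries all lay on one side of the 4 young ones, as they did in 18.4% of all tested genes. Since this is bulk tissue, fewer cells of a type and less RNA per cell cannot be told apart. The count fell to 1358 without young GFP 1, to 1393 without young GFP 4, to 606 without young GFP 1 and 3 together and to 627 without oldest-old GFP 1 and 4 together.

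The plot of fold changes by gene list gives the outline. Slow contractile proteins, denervation genes, immediate early genes and chemokines had medians above that of all tested genes, and the collagens and the respiratory chain had medians below it.

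**Figure D1:**
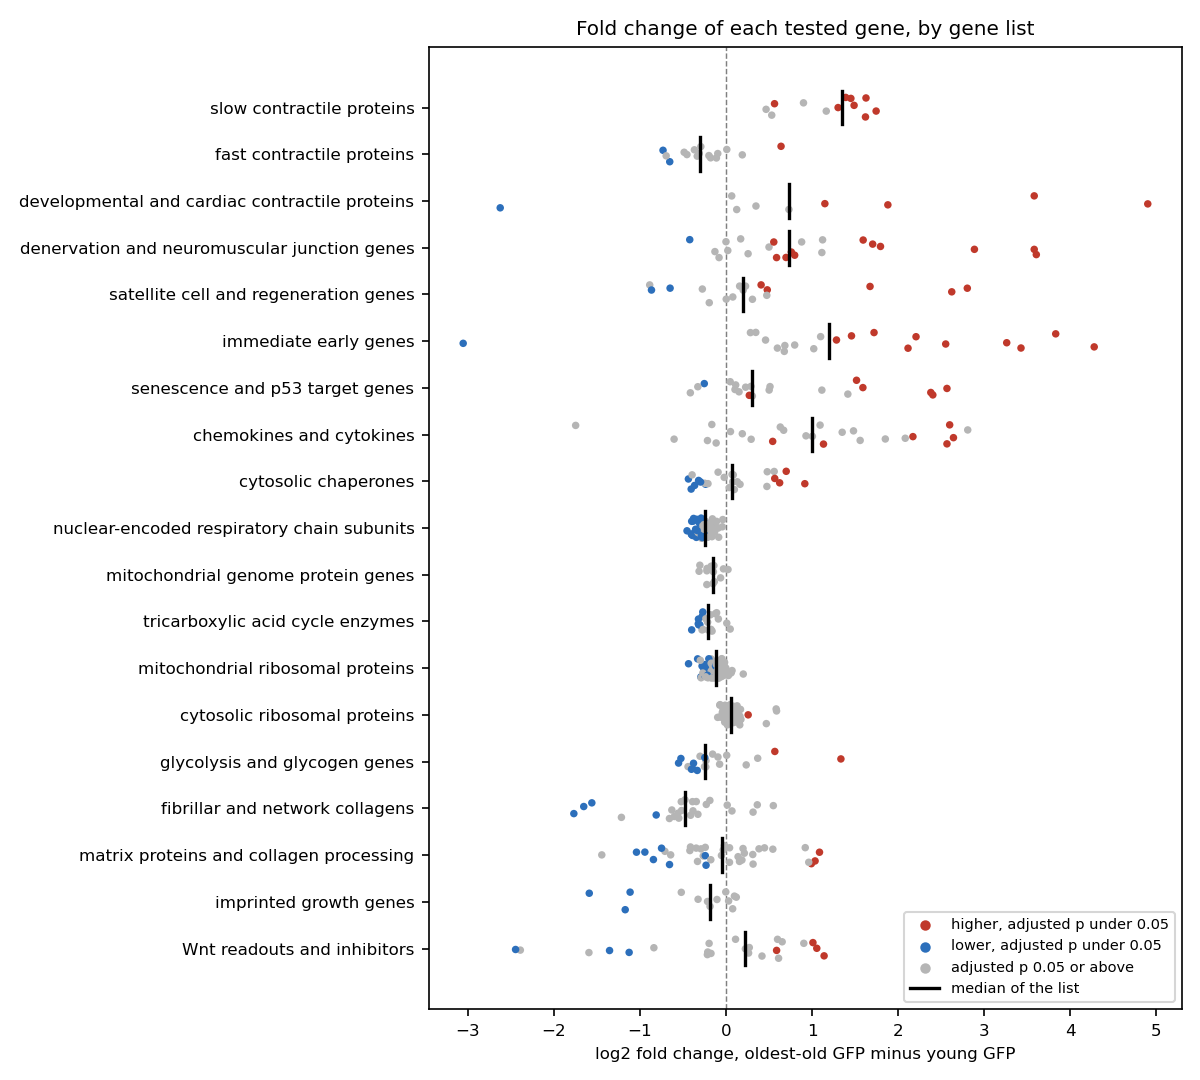
Log2 fold change (oldest-old GFP minus young GFP) of every tested member of 19 gene lists, 1 point a gene, with the vertical bar at the median of the list. All 12 slow contractile genes lie above 0 and all 75 respiratory chain genes below it, the first by a median of 1.35 and the second by -0.24.

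Genes of the contractile apparatus gave some of the largest changes. Sarcolipin (Sln), a small membrane peptide that slows the calcium pump of the sarcoplasmic reticulum, stood at 50.8, 11.5, 18.1 and 40.2 CPM in oldest-old GFP and at 0.966, 0.897, 1.32 and 0.855 CPM in young GFP. It rose 29.9-fold (log2 fold change 4.9 ± 0.65, adjusted p = 0.00032), and the groups did not overlap. Ankrd1, a stretch-responsive ankyrin repeat protein of the sarcomere, stood at 72.9, 36.7, 50 and 113 CPM against 4.5, 4.8, 6.68 and 7.01 CPM and rose 12-fold (log2 fold change 3.58 ± 0.43, adjusted p = 0.00020). Embryonic myosin heavy chain, Myh3, went from 3.15 to 4.93 CPM to 8.08 to 20.1 CPM (log2 fold change 1.88 ± 0.34, adjusted p = 0.0024). Cardiac troponin T, Tnnt2, was low in both and overlapped between the groups, at 3.21, 1.94, 4.1 and 5.7 CPM against 1.79, 1.26, 2.08 and 1.68 CPM (log2 fold change 1.15 ± 0.28, adjusted p = 0.012), and its adjusted p was 0.051 without oldest-old GFP 4. Neonatal myosin Myh8 stood at 5.18 to 6.83 CPM against 3.95 to 5.88 CPM and did not pass the test (adjusted p = 0.12).

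Cardiac actin, Actc1, which skeletal muscle makes mostly before birth, moved the other way. It stood at 192, 119, 248 and 15.4 CPM in oldest-old GFP and at 1044, 633, 1135 and 751 CPM in young GFP, so that it fell by a factor of 6.17 (log2 fold change -2.62 ± 0.62, adjusted p = 0.012). Every old library was below every young one, and library 4 was lower again than the other three. The 9 tested members of the developmental and cardiac list thus held 4 that rose and 1 that fell, with a median of 0.73.

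The 250 bases before the RefSeq start of Actc1 are shown here because the gene fell while other fetal genes rose, and because they hold a CArG box, the motif bound by serum response factor, in capitals. They lie at chr2:114052876-114053125 (minus strand) of GRCm38.p6.
Actc1: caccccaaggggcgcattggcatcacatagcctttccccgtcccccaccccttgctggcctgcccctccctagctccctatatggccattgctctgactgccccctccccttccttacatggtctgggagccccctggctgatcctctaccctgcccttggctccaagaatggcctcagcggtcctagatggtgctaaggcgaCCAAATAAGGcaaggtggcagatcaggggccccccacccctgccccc
The box starts 47 bases before the annotated start. A CArG box on either strand was found in 482 of 32851 RefSeq windows of this length, or 1.47%.

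The slow program was higher as a whole. Of 12 slow contractile genes, 8 rose, none fell and all 12 fold changes were above 0, with a median of 1.35. Slow myosin heavy chain, Myh7, stood at 1277, 528, 486 and 1020.2 CPM in oldest-old GFP and at 283, 282, 192 and 244 CPM in young GFP (log2 fold change 1.75 ± 0.39, adjusted p = 0.0086). The slow tropomyosin gene Tpm3 stood at 621, 316, 273 and 590.2 CPM against 160.4, 169, 129 and 134 CPM (log2 fold change 1.62 ± 0.34, adjusted p = 0.0058). Old libraries 1 and 4 were the highest and 2 and 3 the nearest to the young range in both genes. The slow troponins followed the same order of libraries. The calcium-binding subunit Tnnc1 had log2 fold change 1.45 ± 0.33, adjusted p = 0.0096, the inhibitory subunit Tnni1 had log2 fold change 1.63 ± 0.36, adjusted p = 0.0090 and the tropomyosin-binding subunit Tnnt1 had log2 fold change 1.39 ± 0.33, adjusted p = 0.012. Atp2a2, the slow-type calcium pump, Myh7b, a slow-tonic myosin, and Mybpc1, slow myosin-binding protein C, also rose, by 1.3 ± 0.37, 1.49 ± 0.39 and 0.56 ± 0.15 on the log2 scale (adjusted p = 0.028, 0.019 and 0.021). Each of these last 3 calls was lost without young GFP 3, oldest-old GFP 1 or oldest-old GFP 4, with the highest adjusted p at 0.084 without oldest-old GFP 1 for Atp2a2. The number of slow genes that rose ran from 5 to 10 when 1 library was left out, with 5 without oldest-old GFP 1, oldest-old GFP 4 or young GFP 3. Without oldest-old GFP 1 and 4, the libraries high in red blood cell transcripts, none of the 12 was called by edgeR, 7 had an unadjusted p under 0.05 and the median was 0.75. Without young GFP 1 and 3, the libraries high in skin markers, none was called either, with 10 at an unadjusted p under 0.05 and a median of 1.29.

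Fast contractile genes moved less. Of 16, 2 fell and 1 rose, with a median of -0.30. Parvalbumin (Pvalb), the calcium buffer of fast fibers, stood at 5204, 6483, 6454 and 3399 CPM in oldest-old GFP and at 8703, 8283, 8196 and 9005 CPM in young GFP (log2 fold change -0.65 ± 0.17, adjusted p = 0.016). Calsequestrin 1 (Casq1), the calcium store of the fast sarcoplasmic reticulum, stood at 1608, 1723, 1921 and 729.9 CPM against 2649, 2474, 2418 and 2476 CPM (log2 fold change -0.73 ± 0.20, adjusted p = 0.025), and its adjusted p was 0.064 without young GFP 1. Old library 4 was the lowest in both. Of the fast myosins, Myh1 (type IIX) rose from 2662 to 3697 CPM to 3687 to 5838 CPM (log2 fold change 0.64 ± 0.16, adjusted p = 0.015), with a call lost without oldest-old GFP 4 (adjusted p = 0.059) or young GFP 3. Myh4 (type IIB), the most abundant, stood at 43734, 53392, 50755 and 42489.6 CPM against 60614, 53824, 59768 and 68156 CPM and just missed the threshold (log2 fold change -0.33 ± 0.11, adjusted p = 0.052). Myh2 (type IIA) gave 2826, 2722, 2130.1 and 1834 CPM against 2567, 2280.0, 2038 and 2660.3 CPM (log2 fold change 0.01 ± 0.18, adjusted p = 0.98).

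Genes that muscle switches on when its nerve is lost were higher in oldest-old GFP. Of 22 denervation and junction genes, 11 rose and 1 fell, with a median of 0.73. The fetal gamma subunit of the acetylcholine receptor, Chrng, stood at 1.1, 0.387, 2.09 and 1.22 CPM in oldest-old GFP and at 0, 0.218, 0.0372 and 0.147 CPM in young GFP (log2 fold change 3.61 ± 0.94, adjusted p = 0.019). It was a rare transcript in every library, but the groups did not overlap. The alpha subunit Chrna1 stood at 30.4, 20.9, 34 and 24.7 CPM against 18.5, 19.4, 16.6 and 19.5 CPM (log2 fold change 0.59 ± 0.18, adjusted p = 0.042), and the beta subunit Chrnb1 at 51.4, 53.5, 69.1 and 92.5 CPM against 38, 40.9, 36.1 and 44.3 CPM (log2 fold change 0.76 ± 0.20, adjusted p = 0.019). The delta subunit Chrnd did not overlap between the groups either, with 4.91 to 6.93 CPM against 2.46 to 3.98 CPM, and missed the threshold (log2 fold change 0.88 ± 0.30, adjusted p = 0.061). The adult epsilon subunit Chrne stood at 11.1 to 16 CPM against 13.7 to 14.4 CPM (log2 fold change -0.08 ± 0.11, adjusted p = 0.67).

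The windows of 250 bases before the starts of Chrng and Chrna1 are printed as those of receptor subunits that rose together, and because they hold the motif. They and that of Actc1 were picked from 12 windows of 11 changed genes searched for 3 motifs (CAGCTG, the CArG box and TGACGTCA, the last in 1.55% of all windows), of which 5 windows held none, among them those of Myog and Ankrd1. The windows of the immediate early genes Fos and Junb, not printed, each held 1 copy of CAGCTG. The capitals mark E-boxes of the sequence CAGCTG, a form of the site that myogenic factors such as myogenin bind.
Chrng, chr1:87205561-87205810 (plus strand) of GRCm38.p6: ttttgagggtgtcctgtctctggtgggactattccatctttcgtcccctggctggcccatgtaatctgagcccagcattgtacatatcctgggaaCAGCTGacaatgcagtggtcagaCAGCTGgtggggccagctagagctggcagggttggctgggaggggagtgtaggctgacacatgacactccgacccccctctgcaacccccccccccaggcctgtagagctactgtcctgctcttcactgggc
Chrna1, chr2:73580339-73580588 (minus strand) of GRCm38.p6: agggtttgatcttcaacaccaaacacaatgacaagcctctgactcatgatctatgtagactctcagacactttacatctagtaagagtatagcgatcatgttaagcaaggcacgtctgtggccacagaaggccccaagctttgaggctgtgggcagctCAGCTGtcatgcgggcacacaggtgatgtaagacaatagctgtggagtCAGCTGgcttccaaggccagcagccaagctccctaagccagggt
Each window holds 2 copies, 155 and 132 bases before the start of Chrng and 92 and 44 bases before that of Chrna1. At least 1 copy was found in 13% of the 32851 RefSeq windows and 2 or more in 1.26%. The letters CAGCTG read the same on both strands.

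Myogenin itself (Myog), the factor that commits myoblasts to differentiate, stood at 18.5, 15.5, 16.9 and 12.9 CPM in oldest-old GFP and at 7.12, 4.0, 5.19 and 5.01 CPM in young GFP (log2 fold change 1.59 ± 0.38, adjusted p = 0.013). Myod1, the determination factor upstream of it, stood at 42.9, 26.5, 39.1 and 36.6 CPM against 16.6, 9.21, 11 and 9.11 CPM (log2 fold change 1.67 ± 0.38, adjusted p = 0.0095). Runx1, which protects denervated fibers from wasting, stood at 10.9, 7.43, 10.7 and 12.6 CPM against 2.87, 3.52, 3.54 and 2.98 CPM (log2 fold change 1.7 ± 0.42, adjusted p = 0.015). Kcnn3, a calcium-gated potassium channel of denervated fibers, rose from 2.12 to 3.15 CPM to 6.97 to 10.9 CPM (log2 fold change 1.8 ± 0.34, adjusted p = 0.0033). The adhesion molecule Ncam1 (0.80 ± 0.21, adjusted p = 0.018) and the agrin receptor Lrp4 (0.56 ± 0.14, adjusted p = 0.015) rose by less. Acetylcholinesterase (Ache), which clears the transmitter at the junction, fell from 31.2 to 34.7 CPM to 20 to 28 CPM (log2 fold change -0.42 ± 0.11, adjusted p = 0.015). Musk, the kinase that organizes the junction, stood at 13.8, 12.4, 16.3 and 21.2 CPM against 11.7, 11, 13.7 and 21.1 CPM (log2 fold change 0.17 ± 0.27, adjusted p = 0.73), and young sham libraries had 5.94 to 7.28 CPM.

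A gene outside the lists, Gdf5, a bone morphogenetic protein that denervated muscle secretes, is named for its size: it stood at 1.15, 0.605, 1.83 and 1.93 CPM in oldest-old GFP and at 0.0236, 0.0485, 0.0372 and 0.0244 CPM in young GFP, where it rested on 1 or 2 reads a library (log2 fold change 5.28 ± 0.96, adjusted p = 0.0024). The myoblast fusion genes Mymk (log2 fold change 2.62 ± 0.68, adjusted p = 0.017) and Mymx (log2 fold change 2.8 ± 0.80, adjusted p = 0.028) rose from near 0, with 0.194 to 0.96 and 0.0968 to 0.37 CPM in oldest-old GFP. The satellite cell factor Pax7 did not pass the test, at 1.13 to 3.51 CPM against 1.88 to 2.22 CPM (log2 fold change 0.23 ± 0.27, adjusted p = 0.62). Chodl, a lectin of the satellite cell and regeneration list, fell from 8.67 to 11.3 CPM to 3.91 to 7.28 CPM (log2 fold change -0.87 ± 0.18, adjusted p = 0.0058). Of the 17 genes in that list, 5 rose and 2 fell.

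The junction calls were near the threshold. Leaving out 1 library at a time gave between 6 (without young GFP 3) and 12 members of the denervation list that rose, with 7 without oldest-old GFP 4. Without young GFP 1 and 3 together 1 of the 22 rose, with a median of 0.63, and without oldest-old GFP 1 and 4 together 1 rose, with a median of 0.57. Over the 8 fits without 1 library the highest adjusted p was 0.13 without oldest-old GFP 3 for Chrna1, 0.080 without oldest-old GFP 4 for Chrnb1, 0.057 without young GFP 3 for Chrng, 0.060 without oldest-old GFP 4 for Ncam1, 0.059 without young GFP 4 for Lrp4 and 0.080 without young GFP 1 for Mymx. Against young sham in place of young GFP, 14 of the 22 rose and 1 fell, beside 7.02% and 4.46% of all genes tested in that fit. Myod1, which is in the satellite cell and regeneration list and not among the 22, was not called against young sham. Its young sham libraries stood at 37.6, 28.2, 29.4 and 29.7 CPM, inside the range of the old ones (log2 fold change 0.22, adjusted p = 0.71). Myog also missed the threshold there, with young sham at 8.7, 7.99, 8.86 and 7.53 CPM (log2 fold change 0.95, adjusted p = 0.077). The plot of muscle genes by library sets the 4 groups side by side.

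**Figure D2:**
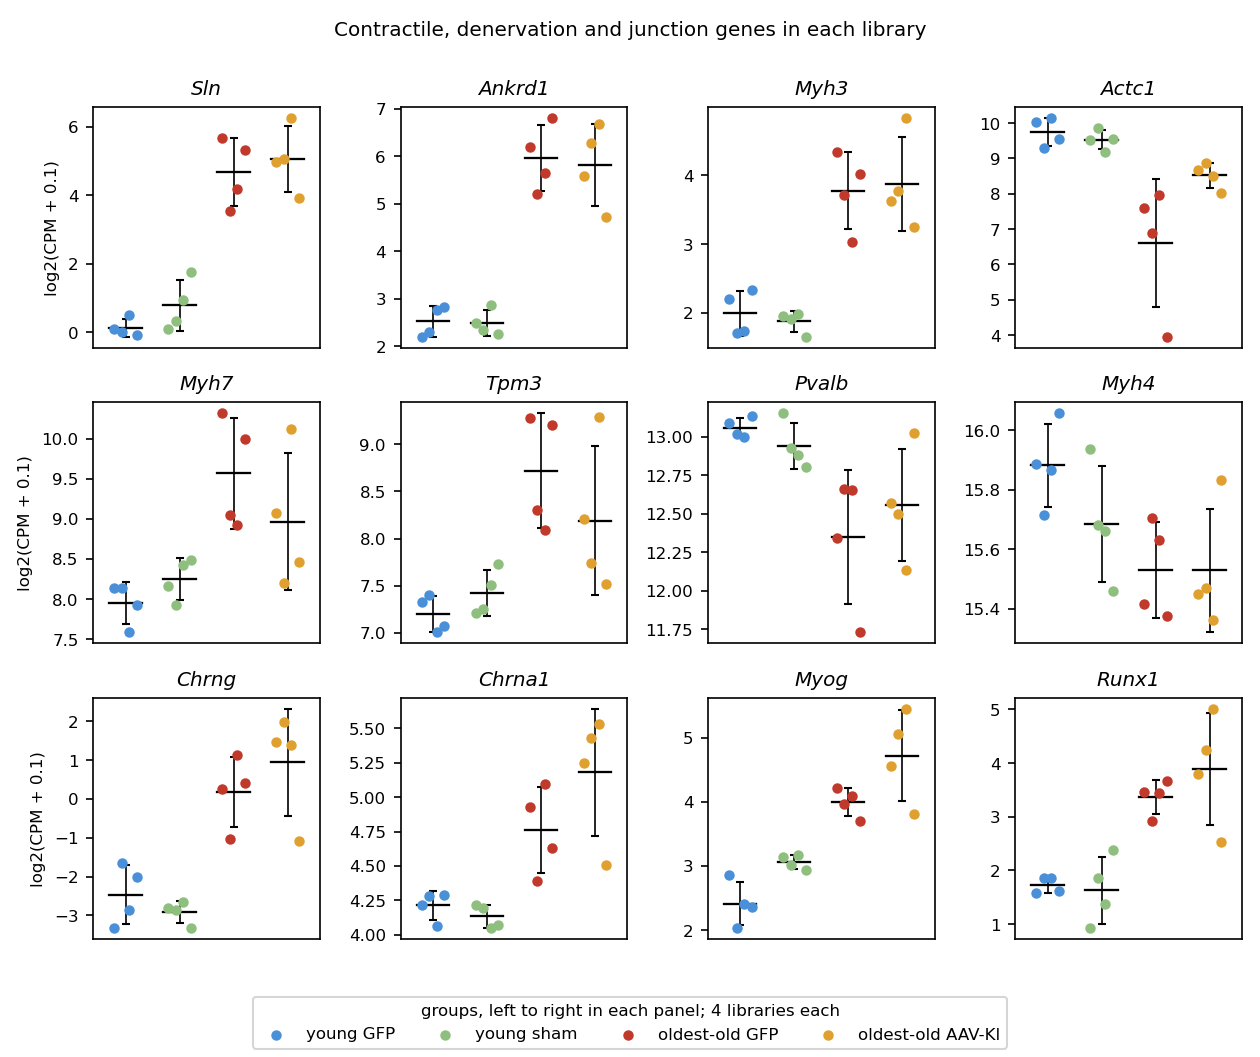
Level of 12 genes in each library as log2(CPM + 0.1), with points for libraries, bars for the mean and whiskers for the SD (n = 4), in young GFP, young sham, oldest-old GFP and oldest-old AAV-Kl. Sln, Ankrd1, Myh3, Chrng and Runx1 lie higher in both oldest-old groups than in both young groups, and Actc1 lies lower.

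A pair of genes of membrane signalling that no list held were among the largest increases. Rrad, a small GTPase that blocks calcium channels and is known from damaged and denervated muscle, stood at 29.2, 17.7, 20.7 and 18.5 CPM in oldest-old GFP and at 0.613, 0.946, 1.66 and 0.733 CPM in young GFP (log2 fold change 4.43 ± 0.69, adjusted p = 0.00084). Cpne2, a calcium-dependent membrane-binding copine, stood at 51.4, 32.2, 37.2 and 57.7 CPM against 7.78, 9.84, 7.22 and 7.28 CPM (log2 fold change 2.49 ± 0.37, adjusted p = 0.00067). Otud1, a deubiquitinase, rose from 13.1 to 20.8 CPM to 52.9 to 105 CPM (log2 fold change 2.46 ± 0.47, adjusted p = 0.0034). Of the ubiquitin ligases of muscle atrophy, Fbxo32 (atrogin-1) stood at 467, 412, 537 and 1145 CPM against 448, 318, 358 and 346 CPM (log2 fold change 0.82 ± 0.27, adjusted p = 0.056) and Trim63 (MuRF1) at 203, 164, 217 and 535 CPM against 228, 205, 226 and 257 CPM (log2 fold change 0.31 ± 0.28, adjusted p = 0.51). Both were highest in oldest-old GFP 4. Myostatin (Mstn), the muscle growth inhibitor, gave 54.2, 69.4, 66.7 and 47.4 CPM against 72, 72.7, 76.6 and 91.5 CPM (log2 fold change -0.38 ± 0.21, adjusted p = 0.25). Of the 26 atrophy and autophagy genes 2 rose and 1 fell, and of 31 proteasome subunits 2 rose and none fell.

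Chaperones changed in both directions. Of 25 in the list 4 rose and 6 fell, and against young sham 8 rose and 1 fell. Without oldest-old GFP 1 and 4 none rose and 5 fell, and 13 of the 25 had an unadjusted p under 0.05 in edgeR. Hspb8, a partner in chaperone-assisted autophagy of damaged filaments, stood at 580.4, 518, 595 and 583 CPM in oldest-old GFP and at 367, 342, 352 and 356 CPM in young GFP (log2 fold change 0.70 ± 0.14, adjusted p = 0.0042). Cryab, alpha-B crystallin, stood at 1105, 781, 744 and 689 CPM against 554, 526, 493 and 604 CPM (log2 fold change 0.62 ± 0.18, adjusted p = 0.028). Hspb7 (log2 fold change 0.92 ± 0.25, adjusted p = 0.024) and Hspb6 (log2 fold change 0.57 ± 0.18, adjusted p = 0.044), both small heat shock proteins of striated muscle, also rose, and their adjusted p reached 0.070 without oldest-old GFP 4 and 0.13 without oldest-old GFP 4. For Cryab it reached 0.11 without oldest-old GFP 1. The constitutive Hsp70, Hspa8, fell from 1006 to 1271 CPM to 746 to 981 CPM (log2 fold change -0.44 ± 0.09, adjusted p = 0.0042), and the mitochondrial cochaperonin Hspe1 fell as well (log2 fold change -0.36 ± 0.07, adjusted p = 0.0034). Young sham libraries stood at 902 to 996 CPM for Hspa8, and the fall was not called against them (log2 fold change -0.14, adjusted p = 0.28). The stress-inducible Hspa1a stood at 3.09 to 6.3 CPM against 1.89 to 4.26 CPM and did not pass the test (adjusted p = 0.56).

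Immediate early genes, the transcription factors that cells switch on within minutes of a stimulus, were higher in 3 of the 4 old libraries. Of 20, 10 rose and 1 fell, with a median of 1.19. Fos stood at 224, 208, 227 and 28.7 CPM in oldest-old GFP and at 15.8, 5.24, 8.67 and 5.91 CPM in young GFP (log2 fold change 4.28 ± 0.71, adjusted p = 0.0013). Egr1 stood at 214, 243, 249.7 and 45.5 CPM against 33.5, 15.1, 17.7 and 12.6 CPM (log2 fold change 3.26 ± 0.54, adjusted p = 0.0014). Library 4 was the low one of the old group in both, though still above the young range. Fosb (log2 fold change 3.43 ± 0.68, adjusted p = 0.0045) had the same pattern of libraries. In Junb (167, 159, 199 and 37.4 CPM against 49.2, 24.5, 14 and 8.84 CPM, log2 fold change 2.55 ± 0.69, adjusted p = 0.022), Btg2 (log2 fold change 2.21 ± 0.62, adjusted p = 0.028) and Egr3 (log2 fold change 3.83 ± 0.95, adjusted p = 0.015) the fourth old library fell inside the young range. The phosphatase Dusp1 (log2 fold change 1.28 ± 0.34, adjusted p = 0.022), the survival gene Ier3 (log2 fold change 1.46 ± 0.21, adjusted p = 0.00054) and Apold1, an early gene of endothelium (log2 fold change 3.1 ± 0.86, adjusted p = 0.025), rose too. Leaving out 1 library gave 7 (without young GFP 4) to 11 (without oldest-old GFP 4) members that rose. The adjusted p was 0.068 without young GFP 4 for Junb, 0.082 without young GFP 4 for Btg2, 0.061 without young GFP 3 for Dusp1 and 0.076 without young GFP 4 for Apold1. In young sham, Fosb spanned 0.603 to 21.1 CPM, and its rise was not called against that group (log2 fold change 1.12, adjusted p = 0.34).

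Nr4a3, an orphan nuclear receptor that muscle induces with exercise, was the 1 member that fell. It stood at 11.8, 17.8, 17.1 and 38.8 CPM in oldest-old GFP and at 163, 169, 158 and 232 CPM in young GFP (log2 fold change -3.06 ± 0.47, adjusted p = 0.00079). The young sham libraries stood at 24.3, 21.8, 20.5 and 43.6 CPM, much nearer to the old ones, and against them the log2 fold change was -0.36, adjusted p = 0.61. Some metabolic genes also gave another answer against young sham. Ppargc1a, the coactivator PGC-1alpha that drives mitochondrial biogenesis, stood at 41.5, 39, 42.6 and 40.1 CPM in oldest-old GFP, 58.2, 98, 146 and 146 CPM in young GFP and 38.2, 41.6, 54 and 58.5 CPM in young sham. Its fall was called against young GFP (log2 fold change -1.44 ± 0.22, adjusted p = 0.00067) and not against young sham (log2 fold change -0.24, adjusted p = 0.48). The uncoupling protein gene Ucp3 fell against young GFP, from 247 to 403 CPM to 106 to 198 CPM (log2 fold change -1.0 ± 0.29, adjusted p = 0.032), and had the other sign against young sham, where it stood at 87.6 to 149 CPM (log2 fold change 0.39, adjusted p = 0.37). Ppara, the nuclear receptor of fatty acid oxidation, fell against both, at 7.44, 8.49, 6.25 and 4.52 CPM in oldest-old GFP, 15.8, 16.4, 13.6 and 17.4 CPM in young GFP and 7.88, 10.5, 12.8 and 12.6 CPM in young sham (log2 fold change -1.23 ± 0.19, adjusted p = 0.00067, and -0.72, adjusted p = 0.021 against young sham). Ppargc1a and Ppara were the 2 that fell among 16 metabolic transcription regulators (12.5%), with a median of -0.06. Ucp3 was the 1 that fell among 26 fatty acid uptake and oxidation genes (3.85%), with a median of -0.05. None rose in either list, and 5.25% of all tested genes fell.

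Genes of the respiratory chain, the tricarboxylic acid cycle and mitochondrial ribosomes were lower by small amounts. Of 75 nuclear-encoded respiratory chain subunits 34 fell, none rose and all 75 fold changes were below 0, with a median of -0.24. Uqcrb, of complex III, stood at 209, 209.7, 205 and 169 CPM in oldest-old GFP and at 269, 245, 241 and 268 CPM in young GFP (log2 fold change -0.35 ± 0.07, adjusted p = 0.0049). Cox7c, of complex IV, stood at 162, 184, 172 and 120.3 CPM against 227, 216, 196 and 203 CPM (log2 fold change -0.39 ± 0.10, adjusted p = 0.014). Cytochrome c (Cycs) and Sdhb of complex II fell by 1.37-fold and 1.32-fold (log2 fold change -0.45 ± 0.12, adjusted p = 0.020 and log2 fold change -0.40 ± 0.11, adjusted p = 0.024). Library 4 was the lowest old library in all 4 of these. Among 21 tricarboxylic acid cycle enzymes 7 fell, and among 70 mitochondrial ribosomal proteins 17 fell, with none rising in either list. These were 33.3% and 24.3%, beside 5.25% of all tested genes. Against young sham none of the 21 was called, and of the 70 1 fell and 1 rose. In oldest-old AAV-Kl against young sham edgeR called none in either list, with 2 and 8 at an unadjusted p under 0.05. DESeq2 called 1 and 2 there. Without oldest-old GFP 1 and 4 together none of the 21 and 1 of the 70 fell. None of the 13 protein genes of the mitochondrial genome passed the edgeR test, 1 had an unadjusted p under 0.05 and 0 were called by DESeq2, with a median of -0.15.

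This decrease depended on the young group it was set against. With young sham as reference 6 of the 75 respiratory chain subunits fell, and in the oldest-old AAV-Kl mice against young sham none did, with a median of 0.01. In those mice 3 of the 75 had an unadjusted p under 0.05 in edgeR and 1 was called by DESeq2. Summed over the 75 genes the level was 16465, 17623, 16584 and 13375 CPM in oldest-old GFP, 19405, 19456, 17588 and 19457 CPM in young GFP and 18338, 16397, 17089 and 16800.1 CPM in young sham. The sham libraries overlapped the old ones. The number that fell against young GFP was 8 without young GFP 1, 15 without young GFP 4, 18 without oldest-old GFP 4 and 55 without oldest-old GFP 2. It was 7 without young GFP 1 and 3 together and 3 without oldest-old GFP 1 and 4 together. Glycolysis and glycogen genes fell in 7 of 20 and rose in 2. Eno3, muscle enolase (log2 fold change -0.52 ± 0.13, adjusted p = 0.016), and Pygm, muscle glycogen phosphorylase (log2 fold change -0.40 ± 0.12, adjusted p = 0.034), fell, while Pfkfb1, which makes the activator of phosphofructokinase (log2 fold change 0.57 ± 0.13, adjusted p = 0.0084), and Gbe1, the glycogen branching enzyme (log2 fold change 1.34 ± 0.30, adjusted p = 0.0086), rose. Against young sham 5 of the 20 rose and 1 fell. Pfkfb1 stood at 88.8, 63.5, 63.8 and 83.5 CPM in oldest-old GFP, 51.7, 48.8, 44.9 and 59.2 CPM in young GFP and 47.8, 39.9, 41.8 and 44.9 CPM in young sham. Scd1, the fatty acid desaturase of lipid synthesis, spread over 55.9 to 923 CPM within young GFP alone, and 1 of 26 lipogenesis and sterol genes fell.

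**Figure D3:**
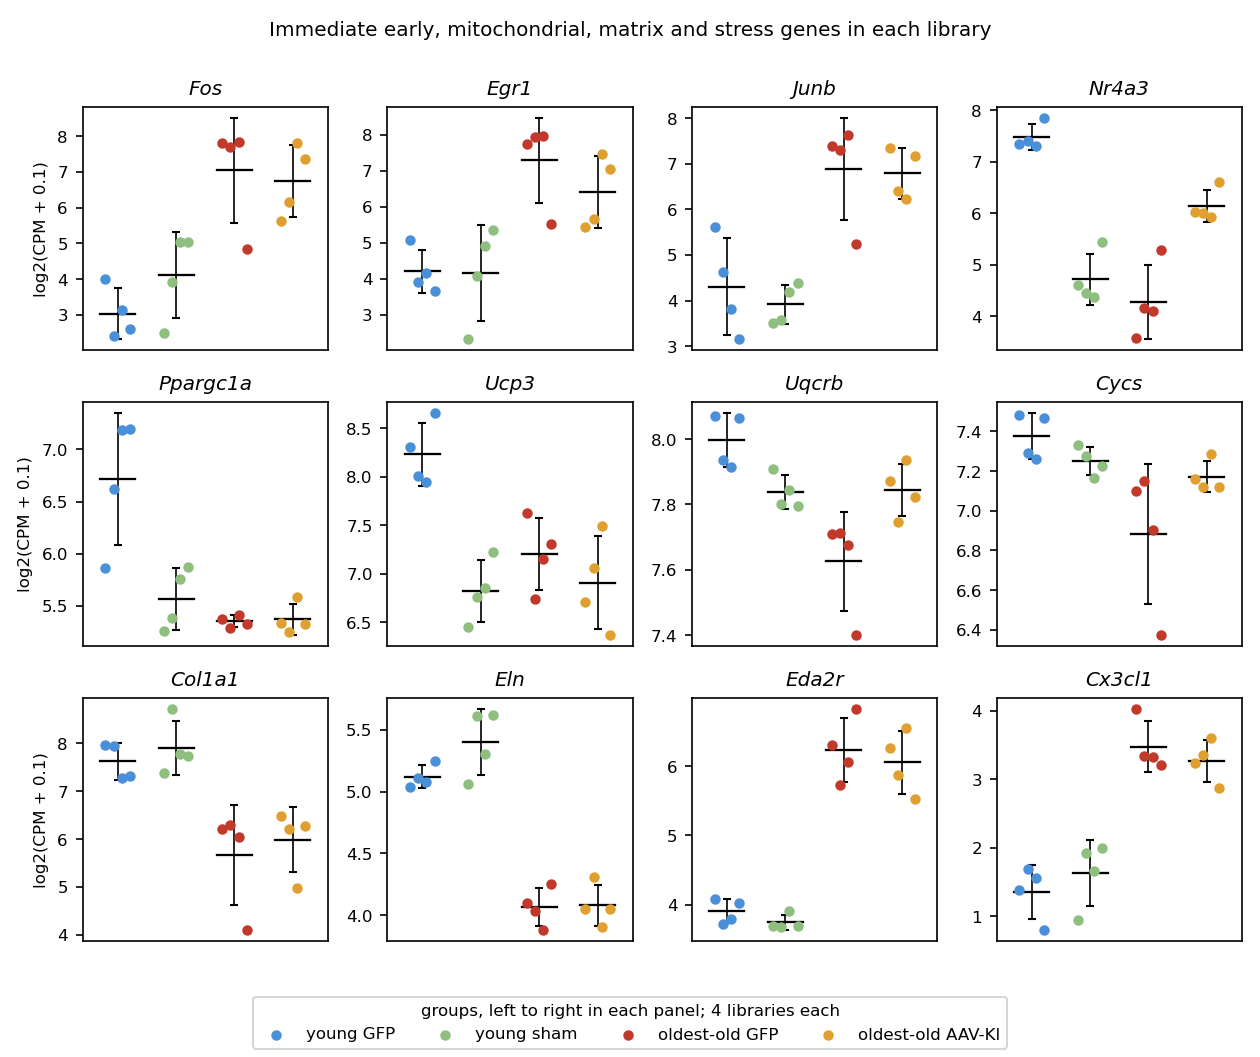
Level of 12 genes in each library as log2(CPM + 0.1), with points for libraries, bars for the mean and whiskers for the SD (n = 4), in the same 4 groups. Nr4a3 and Ucp3 are higher in every young GFP library than in any other, Eln is lower and Eda2r and Cx3cl1 are higher in both oldest-old groups, and the fourth oldest-old GFP library is low in Fos, Egr1, Junb and Col1a1.

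Several transcripts of the fibrous matrix were lower in oldest-old GFP. Of 25 collagen genes 4 fell and none rose, 20 of the 25 fold changes were below 0 and the median was -0.48. Col1a1, a chain of type I collagen, stood at 74.4, 78.4, 66.2 and 17 CPM in oldest-old GFP and at 249, 246, 155 and 159 CPM in young GFP (log2 fold change -1.77 ± 0.42, adjusted p = 0.012). Its partner chain Col1a2 stood at 70.2, 86.6, 75.8 and 21.8 CPM against 221, 240.0, 148 and 145 CPM (log2 fold change -1.56 ± 0.40, adjusted p = 0.017). Old library 4 had the lowest level of both, and the other 3 were also below every young library. Col11a1, a fibril nucleator, fell from 2.51 to 3.83 CPM to 0.673 to 1.15 CPM (log2 fold change -1.65 ± 0.25, adjusted p = 0.00061). Type III collagen, Col3a1, did not overlap between the groups, at 82.9, 82.8, 63 and 17 CPM against 134, 180.2, 138 and 123 CPM, and missed the threshold (log2 fold change -1.22 ± 0.43, adjusted p = 0.073). Without oldest-old GFP 1 and 4, 1 of the 25 fell and the median was -0.24. Markers of fibroblasts and their progenitors had fold changes below 0 in 9 of 12, and the 1 that fell was Col1a1 itself. They summed to 1013, 1377, 1316 and 794 CPM in oldest-old GFP and 1195, 1897, 1197 and 1211 CPM in young GFP. Tendon markers had fold changes below 0 in 10 of 12, and the 1 that fell was Cilp2. They summed to 247, 264, 274 and 126 CPM against 358, 397, 223 and 277 CPM. In each of these lists the gene that fell was 8.33% of the members, beside 5.25% of all tested genes. Both sums were lowest in oldest-old GFP 4, as the collagens were. The part of these cells in the collagen result was not tested.

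Elastin (Eln), the rubber-like protein of vessels and connective tissue, stood at 17, 16.3, 14.6 and 18.9 CPM in oldest-old GFP and at 32.8, 34.5, 33.7 and 37.9 CPM in young GFP (log2 fold change -1.04 ± 0.13, adjusted p = 0.00022). It had little spread in either group. Sparc, a collagen-binding chaperone of the matrix, stood at 159, 161, 138 and 128 CPM against 256, 331, 257 and 219 CPM (log2 fold change -0.84 ± 0.17, adjusted p = 0.0051). Cilp2, a cartilage and tendon matrix protein, fell from 4.84 to 10.4 CPM to 0.718 to 2.27 CPM (log2 fold change -2.12 ± 0.44, adjusted p = 0.0060). Of the 38 genes for matrix proteins and collagen processing 7 fell and 3 rose. The metalloproteinase Mmp14, which cuts collagen, was among those that rose (log2 fold change 0.99 ± 0.25, adjusted p = 0.016), but young sham stood at 10.9 to 20.2 CPM, level with the old libraries at 11.4 to 15.8 CPM. The matricellular protein Thbs1 rose against both (log2 fold change 1.09 ± 0.29, adjusted p = 0.023, and 1.11, adjusted p = 0.044 against young sham). The adjusted p of Mmp14 was 0.054 without young GFP 4 and that of Thbs1 0.071 without oldest-old GFP 2. Against young sham 12 of the 25 collagen genes fell, and the median was -0.83.

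Secreted signalling regulators changed in both directions. Wif1, an inhibitor that binds Wnt ligands, stood at 0.506, 0.702, 0.893 and 0.153 CPM in oldest-old GFP and at 3.18, 4.34, 1.68 and 3.08 CPM in young GFP (log2 fold change -2.45 ± 0.55, adjusted p = 0.0086). Frzb, another extracellular Wnt antagonist, stood at 2.83, 3.03, 4.18 and 1.07 CPM against 6.86, 6.67, 5.86 and 4.93 CPM (log2 fold change -1.13 ± 0.26, adjusted p = 0.010). Dkk2, of the Dickkopf family, rose from 3.09 to 5.43 CPM to 7.23 to 14.2 CPM (log2 fold change 1.14 ± 0.23, adjusted p = 0.0043), as did the Wnt target Axin2 (log2 fold change 1.06 ± 0.15, adjusted p = 0.00044), whose young sham level of 7.05 to 8.62 CPM was nearer the old range of 8.54 to 12 CPM (log2 fold change 0.34, adjusted p = 0.12). Of 23 Wnt readouts and inhibitors 4 rose and 3 fell. Smad3, the mediator of TGF-beta signals, fell from 180.2 to 204 CPM to 59 to 112 CPM (log2 fold change -1.16 ± 0.14, adjusted p = 0.00018). Igf1, the growth factor of muscle and liver, did not pass the test (log2 fold change 0.16 ± 0.33, adjusted p = 0.79), although its young sham libraries stood higher, at 17.2 to 43.4 CPM against 8.13 to 18.4 CPM in young GFP. Smad3 and Igf1 are among 28 growth factor and TGF-beta genes, of which 2 rose (7.14%) and 1, Smad3, fell (3.57%). Over all tested genes 7.55% rose and 5.25% fell. In oldest-old AAV-Kl against young sham, edgeR called 2 of the 28 higher and none lower, beside 3.03% and 1.26% of all genes. There 9 had an unadjusted p under 0.05 in edgeR, and DESeq2 called 5.

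The Klotho gene Kl itself, whose product the other virus of the series supplies, was rare in muscle. It stood at 0.0175, 0.145, 0.131 and 0.0611 CPM in oldest-old GFP and at 0.33, 0.412, 0.335 and 0.415 CPM in young GFP and fell (log2 fold change -2.1 ± 0.61, adjusted p = 0.030), a call lost without any 1 of 5 libraries, with adjusted p = 0.093 without oldest-old GFP 4. Fgfr3, one of the FGF receptors, fell from 7.07 to 8.27 CPM to 3.29 to 5.55 CPM (log2 fold change -0.91 ± 0.17, adjusted p = 0.0029). Kl and Fgfr3 were the 2 that fell among 9 tested Klotho and FGF receptor genes (22.2%, beside 5.25% of all tested genes), and none rose. In oldest-old AAV-Kl against young sham, edgeR called 1 of the 9 higher and none lower, beside 3.03% and 1.26% of all genes. There 3 had an unadjusted p under 0.05 in edgeR, and DESeq2 called 2.

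A set of 3 noncoding RNAs of the imprinted Dlk1-Dio3 region on chromosome 12, which are made from the maternal copy, fell together. Rian stood at 8.15, 7.87, 6.97 and 6.74 CPM in oldest-old GFP and at 21.8, 23.6, 23 and 21.9 CPM in young GFP (log2 fold change -1.59 ± 0.25, adjusted p = 0.00076). Meg3 stood at 14.1, 15.2, 13.5 and 14.9 CPM against 27.8, 33.9, 31.6 and 32.7 CPM (log2 fold change -1.11 ± 0.18, adjusted p = 0.0011), and Mirg, a host of microRNAs, at 0.593, 0.436, 0.349 and 0.642 CPM against 1.08, 1.36, 1.15 and 1.05 CPM (log2 fold change -1.17 ± 0.22, adjusted p = 0.0028). The groups did not overlap in any of the 3, and each call held without any 1 library. In GRCm38 they lie at chr12:109541001-109571726 (Meg3), chr12:109603940-109661716 (Rian) and chr12:109729764-109749460 (Mirg), on the same strand. Dlk1, a protein gene of the paternal copy next to them, did not pass the test, at 0.436 to 0.85 CPM against 0.757 to 1.12 CPM (log2 fold change -0.52 ± 0.36, adjusted p = 0.36). Igf2, an imprinted growth factor of another cluster, gave 1.09 to 2.76 CPM against 1.75 to 2.26 CPM (log2 fold change -0.19 ± 0.26, adjusted p = 0.69).

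Among stress and senescence genes, a mixed list of senescence genes, cytokines and targets of the p53 factor gave 6 that rose and 1 that fell of 20. Eda2r, a receptor of the TNF family that p53 induces, stood at 79.4, 53.1, 66.5 and 113 CPM in oldest-old GFP and at 16.8, 13.1, 13.8 and 16.2 CPM in young GFP (log2 fold change 2.4 ± 0.24, adjusted p = 2.5e-05). The groups did not overlap, and the call held without any 1 library. Bbc3, the apoptosis inducer PUMA, rose from 0.904 to 1.56 CPM to 2.93 to 4.65 CPM (log2 fold change 1.59 ± 0.26, adjusted p = 0.0010). Plk2, a polo-like kinase, rose from 5.88 to 7.68 CPM to 12 to 22.3 CPM (log2 fold change 1.52 ± 0.16, adjusted p = 2.5e-05). Gdf15, the stress cytokine (log2 fold change 2.38 ± 0.55, adjusted p = 0.0094), and Il6, interleukin 6 (log2 fold change 2.57 ± 0.50, adjusted p = 0.0037), rose from very low levels, with 0.275 to 0.61 and 0.153 to 0.479 CPM in oldest-old GFP. Cdkn1a, the cell cycle inhibitor p21, stood at 93, 74.6, 74.1 and 119.8 CPM against 45.4, 39.6, 35 and 49.2 CPM, did not overlap and missed the threshold (log2 fold change 1.11 ± 0.39, adjusted p = 0.066). Cdkn2a, the senescence marker p16, was near 0 in every library (0.0242 to 0.196 CPM in oldest-old GFP) and was not tested.

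Inflammatory signals rose in part. Of 25 chemokines and cytokines 6 rose (24%, beside 7.55% of all tested genes) and none fell, with a median of 1.0. Their median was 0.40 against young sham, where 6 rose, and 0.16 in oldest-old AAV-Kl against young sham, where 2 rose. Cx3cl1, fractalkine, which draws monocytes, stood at 16.2, 10, 9.96 and 9.11 CPM in oldest-old GFP and at 2.5, 3.13, 2.85 and 1.64 CPM in young GFP (log2 fold change 2.17 ± 0.27, adjusted p = 0.00022). Cxcl14, a chemokine of many tissues, stood at 55, 39.3, 69.5 and 42.2 CPM against 19.2, 29.3, 21.5 and 24.9 CPM (log2 fold change 1.13 ± 0.20, adjusted p = 0.0021), and Cxcl10, an interferon target, rose from 0.165 to 0.41 CPM to 0.581 to 3.49 CPM (log2 fold change 2.6 ± 0.51, adjusted p = 0.0038). Of 35 interferon-stimulated genes 2 rose, which at 5.71% was below the 7.55% of all tested genes that rose. Their fold changes were above 0 in 34, and the median was 0.62 against young GFP and 0.08 against young sham. Over all tested genes the median against young GFP was 0.03. Complement C4b rose against young GFP (log2 fold change 1.51 ± 0.43, adjusted p = 0.029), with young sham at 22.6 to 32 CPM and oldest-old GFP at 24.8 to 46.1 CPM. None of 20 class I or 10 class II antigen presentation genes passed the edgeR test, with 1 and 0 at an unadjusted p under 0.05 and 0 and 0 called by DESeq2.

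Of 14 macrophage markers 2 rose: Trem2, a lipid receptor, from 0.0244 to 0.145 CPM to 0.349 to 1.05 CPM (log2 fold change 2.66 ± 0.45, adjusted p = 0.0013), and Spp1, osteopontin, from 1.51 to 3.18 CPM to 3.55 to 6.2 CPM (log2 fold change 1.04 ± 0.32, adjusted p = 0.040, and adjusted p = 0.13 without oldest-old GFP 1). The 2 were 14.3% of the macrophage list, beside 7.55% of all tested genes that rose. The median of the 14 was 0.825 against young GFP and 0.01 against young sham, where 1 rose. In oldest-old AAV-Kl against young sham the median was 0.08 and none was called by edgeR or DESeq2, with 2 at an unadjusted p under 0.05 in edgeR. Of 9 neutrophil and mast cell markers 3 rose (33.3%). The calprotectin genes S100a8 (0.716, 0.242, 0.305 and 3.39 CPM against 0.118, 0.0727, 0.0745 and 0.0244 CPM, log2 fold change 4.0 ± 0.95, adjusted p = 0.012) and S100a9 (log2 fold change 3.63 ± 0.92, adjusted p = 0.016) were highest in oldest-old GFP 4, and without that library no marker of this list was called (adjusted p = 0.056 and 0.068). Of the immunoglobulin heavy chain constant regions, Ighm, Ighg2c and Igha rose, and Ighg1 and Ighg2b did not pass the test. Ighm stood at 657, 82.3, 163 and 327 CPM in oldest-old GFP and at 37.4, 31.3, 65.6 and 23.6 CPM in young GFP (log2 fold change 2.98 ± 0.63, adjusted p = 0.0065), Ighg2c rose from 0.122 to 0.316 CPM to 3.21 to 8.05 CPM (log2 fold change 4.44 ± 0.62, adjusted p = 0.00042), and Igha from 0.0236 to 0.17 CPM to 0.532 to 8.38 CPM (log2 fold change 4.93 ± 1.08, adjusted p = 0.0081). Jchain, which joins secreted antibodies, rose as well (log2 fold change 4.1 ± 1.08, adjusted p = 0.020, and adjusted p = 0.081 without oldest-old GFP 1). The kappa constant region Igkc spread over 0.171 to 14.9 CPM in young GFP and missed the threshold (log2 fold change 3.61 ± 1.37, adjusted p = 0.092). Ighm, Ighg2c, Igha and Jchain were the 4 called markers among 17 of the B and plasma cell list. That was 23.5%, beside 7.55% of all tested genes that rose. The fold changes of the 17 were above 0 in 10 and below 0 in 7, with a median of 1.11. Their median was -0.48 without oldest-old GFP 1 and 4 and 3.48 without young GFP 1 and 3. Young GFP 3 stood apart in lymphocyte genes: its T and natural killer cell markers summed to 1.98, 2.04, 45.3 and 1.83 CPM over young GFP 1 to 4, against 2.49 to 5.73 CPM in oldest-old GFP, and none of 10 was called by edgeR, with 3 at an unadjusted p under 0.05 and 0 called by DESeq2.

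Of 12 endothelial markers 4 rose, among them the tight junction protein Cldn5 (16.9, 18, 16 and 12.9 CPM against 6.76, 6.35, 6.53 and 4.2 CPM, log2 fold change 1.43 ± 0.25, adjusted p = 0.0019), and none was called by edgeR against young sham, with 3 at an unadjusted p under 0.05, where Cldn5 stood at 8.06 to 11.9 CPM. The 4 were 33.3% of the list, beside 7.55% of all tested genes that rose. Of 12 smooth muscle and pericyte markers 3 rose (25%) and none fell, and 2 rose against young sham. The fat cell hormone Adipoq, at 25.2, 31.4, 12.1 and 19.2 CPM against 8.15, 77.1, 41.4 and 6.93 CPM (log2 fold change -0.59 ± 0.86, adjusted p = 0.70), was highest in young GFP 2 and 3 and did not pass the test. None of 12 adipocyte markers was called by edgeR or DESeq2, with 0 at an unadjusted p under 0.05. Of 8 erythroid markers 7 rose, with 1 without oldest-old GFP 4, 2 without oldest-old GFP 1 and none without both, where 1 had an unadjusted p under 0.05 in edgeR. The alpha globin gene Hba-a1 stood at 209, 42, 35.1 and 260.1 CPM against 22.9, 24.9, 28.8 and 40.4 CPM (log2 fold change 2.25 ± 0.64, adjusted p = 0.029, and adjusted p = 0.10 without oldest-old GFP 4). Of 10 keratinocyte markers 5 fell. Krt14 stood at 0.0175, 0, 0.174 and 0.0459 CPM in oldest-old GFP and at 9.54, 0, 50 and 0 CPM in young GFP, so that 2 young libraries carried the difference (log2 fold change -7.95 ± 2.41, adjusted p = 0.039, and adjusted p = 0.13 without young GFP 3). None of 19 tested hepatocyte markers was called by edgeR, with 0 at an unadjusted p under 0.05 and 0 called by DESeq2. Against young sham all 19 fold changes were below 0, with a median of -3.40. There edgeR called none, with 8 at an unadjusted p under 0.05. The reference groups were uneven too. Keratinocyte markers summed to 11.5, 16.7, 13.1 and 159.8 CPM in young sham, erythroid markers to 272, 73.8, 41.1 and 69.5 CPM, and T and natural killer cell markers to 4.91, 25.5, 36.7 and 30.3 CPM in young sham and 3.77, 32.8, 1.87 and 2.98 CPM in oldest-old AAV-Kl. Whether these tissue transcripts had a part in the muscle results was not tested.

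**Figure D4:**
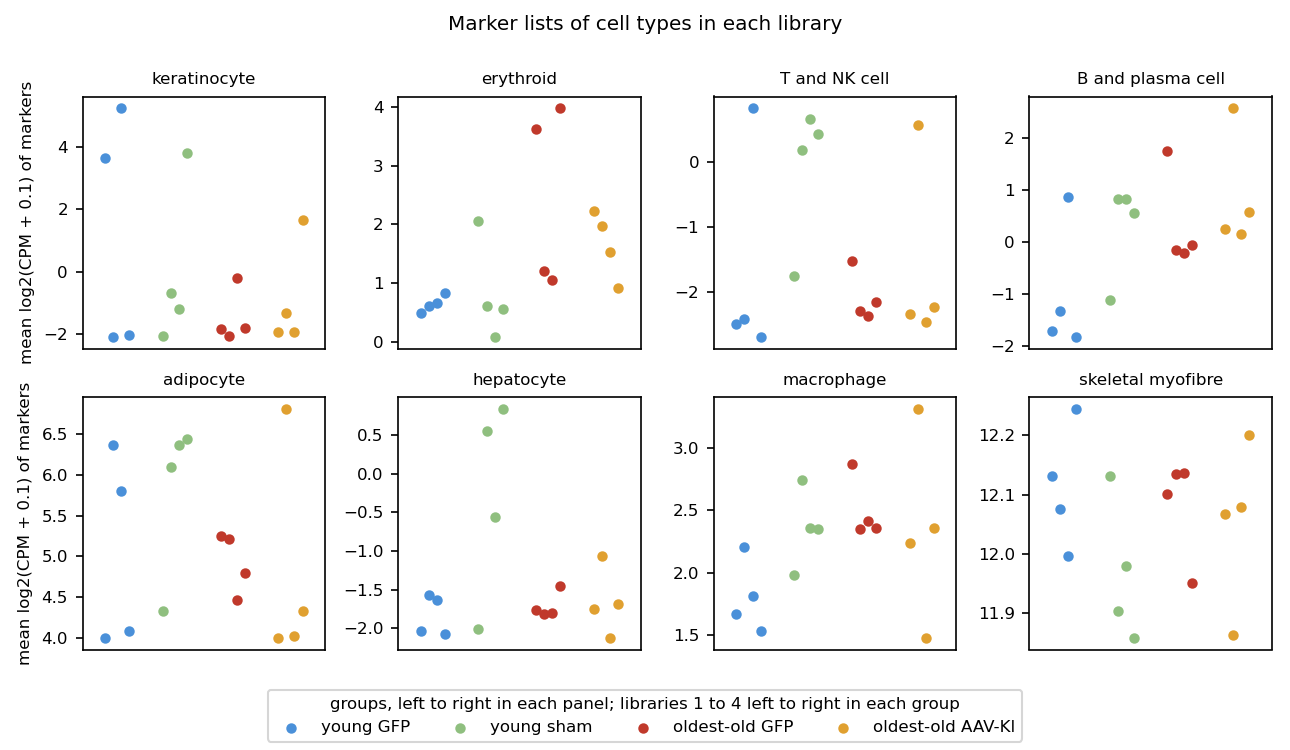
Mean log2(CPM + 0.1) of 8 marker lists in each of the 16 libraries of the 2 young and 2 oldest-old groups, with points in library order. Keratinocyte markers are high in young GFP 1 and 3, erythroid markers in oldest-old GFP 1 and 4 and T and NK cell markers in young GFP 3. The reference groups also hold such libraries, young sham 4 for keratinocyte markers, young sham 1 for erythroid markers and young sham 2 to 4 and oldest-old AAV-Kl 2 for T and NK cell markers, while muscle fiber markers span less than 1 log2 unit.

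Other large decreases were in genes of unrelated roles. Prima1, the membrane anchor of acetylcholinesterase, fell from 4.1 to 5.74 CPM to 0.994 to 1.57 CPM (log2 fold change -1.88 ± 0.30, adjusted p = 0.00084) and stood at 2.65 to 5.54 CPM in young sham. Mettl21e, a muscle methyltransferase, fell from 8.81 to 13.1 CPM to 2.23 to 3.6 CPM (log2 fold change -1.94 ± 0.45, adjusted p = 0.011), and Adgrb2, an adhesion receptor, from 2.28 to 5.84 CPM to 0.78 to 1.98 CPM (log2 fold change -1.79 ± 0.50, adjusted p = 0.028, and adjusted p = 0.080 without oldest-old GFP 4). The synaptic adhesion gene Lrfn4 (log2 fold change -2.04 ± 0.27, adjusted p = 0.00032) and the calcium channel regulator Cbarp (log2 fold change -1.98 ± 0.29, adjusted p = 0.00054) fell against young GFP, but young sham libraries stood at 3.75, 4.36, 5.06 and 17.7 CPM and 1.4, 2.04, 1.75 and 3.01 CPM, which overlapped the old values of 2.55 to 6.51 and 1.02 to 2.23 CPM.

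Clock genes and metallothioneins were mostly not called. Nfil3, a repressor of clock output, fell from 40.8 to 57.5 CPM to 15.1 to 21 CPM (log2 fold change -1.33 ± 0.22, adjusted p = 0.0015) and was 1 of 2 that fell among 20 clock genes. Dbp, a clock output with a strong daily rhythm, gave 22.1 to 48.6 CPM against 30.4 to 48.4 CPM (log2 fold change -0.08 ± 0.36, adjusted p = 0.91), and the core factor Arntl gave 19.5 to 29.2 CPM against 16.3 to 26.2 CPM (log2 fold change 0.18 ± 0.27, adjusted p = 0.72). The metal-binding Mt1 (log2 fold change -0.63 ± 0.44, adjusted p = 0.38) and Mt2 (log2 fold change -0.52 ± 0.59, adjusted p = 0.60) overlapped between the 2 groups, and young sham stood at 6.72 to 19.6 and 0.152 to 0.303 CPM. Of 75 cytosolic ribosomal proteins 1 rose and none fell. Of 27 genes of calcium handling and ion channels 5 rose and 6 fell, and of 25 endoplasmic reticulum and amino acid stress genes and 23 cell cycle genes 1 rose in each and none fell.

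The same 2 ages were also sampled in 8 other libraries, oldest-old AAV-Kl and young sham, which share no mouse with the GFP groups but differ between themselves in the virus as well as in age. There, 717 of 16713 tested genes differed (4.29%), 506 higher and 211 lower. The GFP libraries fitted alone gave 1237 genes (7.7%), of which 1226 were tested in both. Of these, 1119 (91.3%) had the same sign in the other mice, as did 67.5% of all 15943 genes tested in both. The genes called in both with the same sign numbered 304, which was 24.8% of the 1226 and 43.7% of the 696 called in the other mice and tested in both, and 4 genes were called with opposite signs. Of the 304, 228 rose and 76 fell. The median log2 fold change of genes that rose in the GFP libraries was 0.77 there and 0.50 in the other mice, and for genes that fell it was -0.51 and -0.27.

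Among the shared genes were those of the fetal and denervation programs. In oldest-old AAV-Kl, Sln stood at 31.4, 33.3, 76.8 and 15 CPM and Ankrd1 at 47.6, 77.8, 103 and 26.3 CPM, against 0.969, 1.16, 1.83 and 3.29 and 5.49, 4.99, 7.2 and 4.65 CPM in young sham. Chrng stood at 2.68, 3.89, 2.54 and 0.372 CPM against 0.0431, 0.0381, 0.059 and 0 CPM. The log2 fold change of Gdf5 was 5.85, adjusted p = 0.014. Of the 22 denervation genes 11 rose in these mice. The fall of Eln (-1.35, adjusted p = 0.0046), Col1a1 (-1.93, adjusted p = 0.037), Rian (-1.75, adjusted p = 0.045), Wif1 (-2.73, adjusted p = 0.033) and Prima1 (-1.76, adjusted p = 0.015) and the rise of Eda2r (2.36, adjusted p = 0.0042) and Cx3cl1 (1.62, adjusted p = 0.015) were called there too, each given as log2 fold change. Slow contractile genes had a median of 0.88 and none of 12 was called by edgeR, with 6 at an unadjusted p under 0.05 and 1 called by DESeq2. Myh7 stood at 538, 293, 1117 and 354 CPM against 287, 242, 344 and 359 CPM, with 1 old library well above the others. Cdkn1a, which missed the threshold in the fit of 20 libraries and passed it in the GFP libraries fitted alone (log2 fold change 1.1, adjusted p = 0.010), also rose in these, from 27.1, 28, 32 and 41.8 CPM to 151, 181, 387 and 63.5 CPM (log2 fold change 2.60, adjusted p = 0.034). Nr4a3 was 1 of the 4 with opposite signs, at 64.7, 64.2, 60.8 and 97.6 CPM in oldest-old AAV-Kl and 24.3, 21.8, 20.5 and 43.6 CPM in young sham (log2 fold change 1.37, adjusted p = 0.035).

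**Figure D5:**
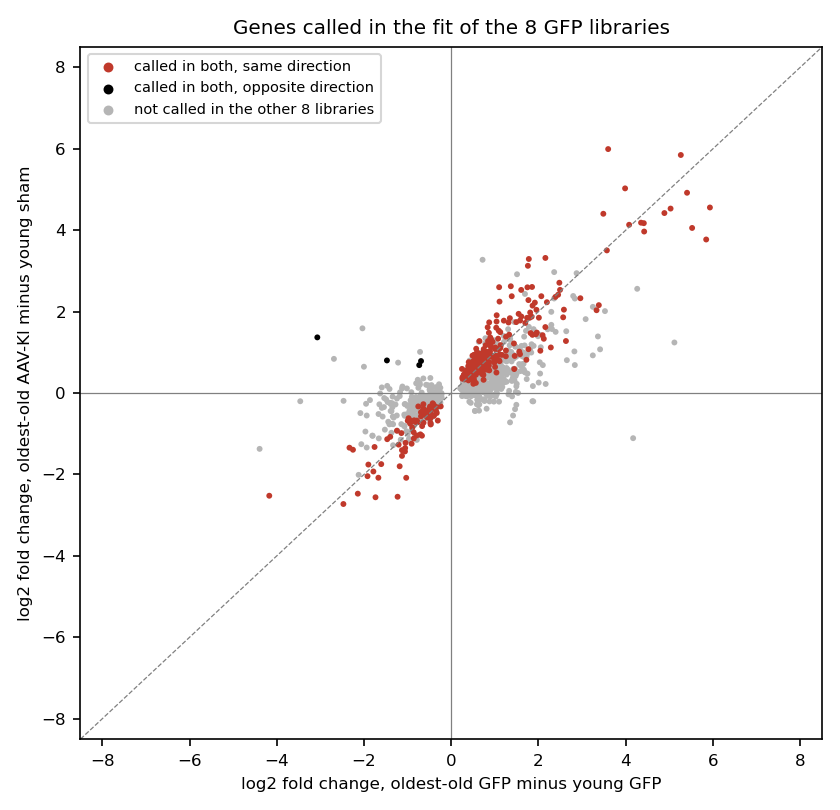
Log2 fold change of the 1226 genes called in the 8 GFP libraries (x axis) against that in the 8 other libraries of the same ages (y axis), 1 point a gene, with the dashed line at equal change. Most points share their sign, 304 are called in both with the same sign and 4 with opposite signs.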

How the data were processed

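Per the study's methods and the labels, the authors aligned reads with STAR 2.7.0a to mm10 and deposited read counts per gene, unnormalized, one file a library, the unstranded column being used here. The gene annotation is not given in the sources used here, and 55144 of 55385 identifiers were named and placed with GENCODE vM21. Reads on genes ran from 41661107 to 59733985 in oldest-old GFP and from 42194363 to 53266529 in young GFP, so that rare transcripts, under about 1 CPM, rest on few reads. Nothing says whether library numbers mark a shared batch.

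Counts from 20 libraries in 5 groups (young sham left out) were filtered with filterByExpr, scaled by TMM and fitted with edgeR's quasi-likelihood model (glmQLFit with a robust prior, glmQLFTest), and p-values were corrected by the Benjamini-Hochberg method over 17465 genes with a threshold of 0.05. Oldest-old AAV-Kl against young sham was fitted apart, on 8 libraries. Young sham as reference used a fit of 24 libraries and shares the oldest-old GFP libraries with the main comparison. Levels are CPM with TMM factors over 24 libraries, and log2 CPM has an offset of 0.1.

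Genes were named by rule: the 10 largest increases and 10 largest decreases that passed the threshold, did not overlap between groups, had a mean log2 CPM of at least 1, kept their direction with DESeq2 size factors and had a gene symbol, the 3 lowest adjusted p-values and the most abundant member of each of 50 lists, and a fixed set of muscle genes. A further 29 were chosen after their values were seen: Tnnt2, Tnnc1, Tnnt1, Atp2a2, Myh7b, Chrnb1, Chrnd, Myod1, Lrp4, Ache, Mymk, Mymx, Gdf5, Egr3, Junb, Btg2, Dusp1, Hspb7, Cryab, Cox7c, Cycs, Gbe1, Eno3, Mmp14, Thbs1, Dlk1, Frzb, Cxcl10 and Hba-a1. Some genes that the rule named are not reported here. The comparison and the lists were chosen with earlier results of these data known. Counting did not use strand, so overlapping antisense genes and near-identical copies such as the globins cannot be told apart. Promoter windows are RefSeq's, GRCm38.p6. Software was R 4.3.3, edgeR 4.0.16, DESeq2 1.42.0 and Python 3.11.15. Alternatives were DESeq2, other scalings, no filter, other sets of libraries, the first-strand counts and each library left out.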

Additional observations from a re-analysis of the deposited data

Results flagged for a closer look

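Single libraries that lay far from the other 3 of their group were sought in log2 CPM for 128 genes, with Dixon's critical value for 4 samples as the limit, and 13 of 256 groups passed it; chance alone passes about 1 in 20. Of these, 8 were oldest-old GFP 4, always as the low library. It stood at 28.7 CPM for Fos against 208 to 227 CPM in the others, at 4.26 CPM for Fosb, at 45.5 CPM for Egr1, at 37.4 CPM for Junb and at 36.8 CPM for Btg2. It was also low in the collagen genes, at 17 CPM for Col1a1 and 21.8 CPM for Col1a2, and at 169 CPM for Uqcrb. Oldest-old GFP 3 was low in Hspb7 at 374 CPM. Oldest-old GFP 1 was high in Cx3cl1 at 16.2 CPM and in Igha at 8.38 CPM. Young GFP 4 was high in Smad3 at 204 CPM and low in Cldn5 at 4.20 CPM.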

How the results depend on the processing

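No directions of called genes were changed by DESeq2 size factors, but the number of genes that passed the threshold moved with the settings. In place of 2236 genes (1319 higher, 917 lower), the 8 libraries fitted alone gave 1237 (785 and 452). That fit took the spread from fewer libraries and tested 16067 genes. No filter on low counts, which enters more genes into the correction, gave 1457 (873 and 584). DESeq2 gave 2899, of which 1457 were lower. Without young GFP 1 and 3 the counts were 606 (329 and 277), and without oldest-old GFP 1 and 4, chosen after seeing the data, 627 (393 and 234). Leaving out 1 library at a time gave 1358 to 2377 genes, 773 to 1213 higher and 508 to 1164 lower, and 4317 to 5145 at an unadjusted p under 0.05 in place of 4968. In oldest-old AAV-Kl against young sham, with 717, the range was 137 to 1135, the lowest without young sham 3, and DESeq2 gave 1749. The cause of these moves was not tested.

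Whether equal replicate numbers pair the samples could not be settled from the counts. Deviations from the group means correlated at -0.145, 0.126, -0.08 and 0.091 over numbers 1 to 4, and 2 of 4 oldest-old libraries correlated best with their own number. With 4 libraries a group such correlations cannot exclude a shared batch. With the replicate number as a block 624 genes were called (426 higher, 198 lower), and 290 in the other comparison.

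A pair of further settings were also chosen after the data were seen: no robust prior gave 2263 genes, and oldest-old AAV-Kl in place of oldest-old GFP gave 1907. Of the 104 genes described as risen or fallen, 22 kept direction and call under every one of 21 settings. Signs turned with young sham as reference for Ucp3 (0.39), Mmp14 (-0.025), Igf1 (-1.14), Pax7 (-0.77) and Mt2 (2.21), and without young GFP 1 and 3 for Krt14 (4.59). Transcripts under about 1 CPM rest on few reads, and with 4 mice a group small changes may be missed.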
